A study of Rattus norvegicus with 107 samples.

Results

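The members described here were the 55 array probes, for 53 genes, whose gene symbol places them in the Slc1, Slc3, Slc6, Slc7, Slc32, Slc36, Slc38 or Slc43 families, which carry amino acids, neurotransmitters, creatine and taurine across membranes. They were chosen by symbol alone, out of 22523 probes on the array, of which 13793 carried 1 gene symbol. All 55 were tested with no filter on low signals. Total RNA came from colon and from the right hemisphere of the brain of untreated Sprague Dawley rat pups, a wild-type outbred stock, taken at embryonic day 21 (E21) and at postnatal day (PND) 1, 2, 3, 5, 7, 10, 15 and 22. Each tissue and age had 6 samples, apart from 5 for colon at E21, which gave 53 colon and 54 brain samples. The E21 pups came from 1 dam by Caesarean section, and the labels tie no other sample to a litter, so each p-value measures the spread between these samples and not between litters.

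Cells take up amino acids through carriers that differ in their driving force. Slc1, Slc6, and several Slc38 proteins draw on the sodium gradient. Most Slc7 light chains exchange 1 amino acid for another and reach the surface only when bound to a heavy chain of the Slc3 family. In epithelia such as gut and kidney, Slc7a9 with Slc3a1 takes up cystine and dibasic amino acids at the luminal side, while Slc7a7 with Slc3a2 releases dibasic amino acids at the basolateral side. In brain, the astrocyte carriers Slc1a2 and Slc1a3 clear glutamate from synapses, Slc6a9 and Slc6a5 clear glycine, and Slc7a5 brings large neutral amino acids across the blood-brain barrier. The adult colon absorbs few amino acids, whereas the colon of the newborn rat has villus-like folds and can absorb them.

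Values below are bead signals, in arbitrary intensity units, after quantile normalization across all 107 arrays. A probe was called detected in a sample at a detection p under 0.05, and the lowest signal among detected probes was between 65.6 and 72.9 on colon arrays and between 66.3 and 76.9 on brain arrays. Signals near that limit are mostly background, so fold changes of dim probes are understated. A member was said to rise or fall when the Benjamini-Hochberg adjusted p of limma, over all 22523 probes, was under 0.01. Log2 changes are given with their standard error (SE), later age minus earlier age. In whole tissue, fewer cells of a type and less RNA per cell cannot be told apart.

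Several samples stood apart. Colon E21 replicate 4 had a summed signal of 7800 for 6 neuron markers, 3421 for 4 astrocyte markers and 1270 for 5 oligodendrocyte markers, against 1404 to 1680, 779 to 1083 and 385 to 457 in the other 4 colon samples of that age. All 6 colon samples of PND 22 held pancreas transcripts, with a summed signal of 5 genes of 10050, 24460, 20610, 9431, 1009 and 1635 in replicates 1 to 6, against 291 to 785 at every earlier age. The same sum was 1710 to 2083 in brain at PND 15 and 1319 to 1758 at PND 22, mostly from Pnlip, with means of 1642 and 1346. The sum alone is thus not specific to pancreas. Of the 5 genes, 4 were detected in all 6 colon samples of PND 22, and 1 in all brain samples of PND 15 and of PND 22. The labelled tissues were otherwise borne out by markers, since 8 colon epithelium genes summed to 26420 or more in every colon sample and to 1152 or less in every brain sample. Colon E21 replicate 4 correlated with the median of its group at 0.975 across probes and every other sample with its own at 0.985 or more.

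Of the 55 members, 25 changed over the 9 ages in colon by the F test of limma, or 45.5%, where 36.7% of all probes did. In brain 27 changed, or 49.1%, where 35.4% of all probes did. The ratio of the highest to the lowest age mean had a median of 1.24 over the members and 1.19 over all probes in colon, and of 1.32 and 1.19 in brain. In all, 17 members passed in both tissues, 8 in colon only, 10 in brain only and 20 in neither; passing in 1 tissue is no test of a difference between tissues. Detection set a limit here. In colon 18 members were detected in every sample, 32 in some and 5 in none, and in brain 25, 24 and 6.

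In colon, 19 members differed at PND 22 from PND 3, where 24.4% of all probes did, with 7 higher and 12 lower, where 11.7% and 12.7% of all probes were. Among the called members were both heavy chains and 5 of the 9 light chains, all lower at PND 22, with a median log2 change of -0.92 over the heavy chains and -0.39 over the light chains, against -0.03 over the 55 members and 0.00 over all probes. Slc7a9, the light chain of the luminal cystine and dibasic amino acid carrier, had a lowest, median and highest signal of 83.1, 95.6 and 109 at PND 22, against 211, 312 and 410 at PND 3. Every PND 22 sample lay below every PND 3 sample, and all 12 samples were above detection. The log2 change was -1.71 ± 0.23, a 3.28-fold difference (limma adjusted p = 1.18e-08). Its partner Slc3a1 had 79.8, 114 and 151 at PND 22, against 164, 185 and 251 at PND 3, with a log2 change of -0.79 ± 0.18 (limma adjusted p = 0.000409). These groups did not overlap either, but Slc3a1 overlaps Prepl in the rat annotation, so the signal of its probe is uncertain as to gene.

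The basolateral pair moved the same way. Slc7a7, which exports arginine and lysine, had a lowest, median and highest signal of 100.2, 123 and 193 at PND 22, against 322, 417 and 511 at PND 3, a log2 change of -1.65 ± 0.21 (limma adjusted p = 3.22e-09). Slc3a2, the heavy chain shared by Slc7a5, Slc7a6, Slc7a7, Slc7a8 and Slc7a10, had 279, 361 and 407 at PND 22, against 574, 749 and 887 at PND 3, a log2 change of -1.05 ± 0.14 (limma adjusted p = 2.35e-08). For both genes each PND 22 sample was lower than each PND 3 sample. Slc7a6, a light chain of similar substrate range, had 171.5, 238 and 327 at PND 22, against 374, 453 and 549 at PND 3, a log2 change of -0.88 ± 0.13 (limma adjusted p = 1.17e-07). Slc7a5 fell by 0.39 ± 0.09 and Slc7a10, an exchanger of small neutral amino acids, fell by 0.51 ± 0.09 on the log2 scale, with Slc7a10 detected in 1 of 6 samples at PND 22 and in all 6 at PND 3.

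The timing differed between these subunits, as the plot of colon signals by age shows. The mean signal of Slc7a9 was 324, 286, 296 and 319 from E21 to PND 3 and then 176, 148, 102, 74.4 and 95.8 at PND 5, 7, 10, 15 and 22. Slc7a7 had means of 303, 296, 320 and 408 up to PND 3 and of 288, 253, 168, 121 and 131 thereafter. For both genes the lower level was thus in place before PND 22. Slc3a2, by contrast, had means between 608 and 810 at all ages up to PND 15 and a mean of 359 ± 45 at PND 22 (SD, n = 6).

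**Figure D1:**
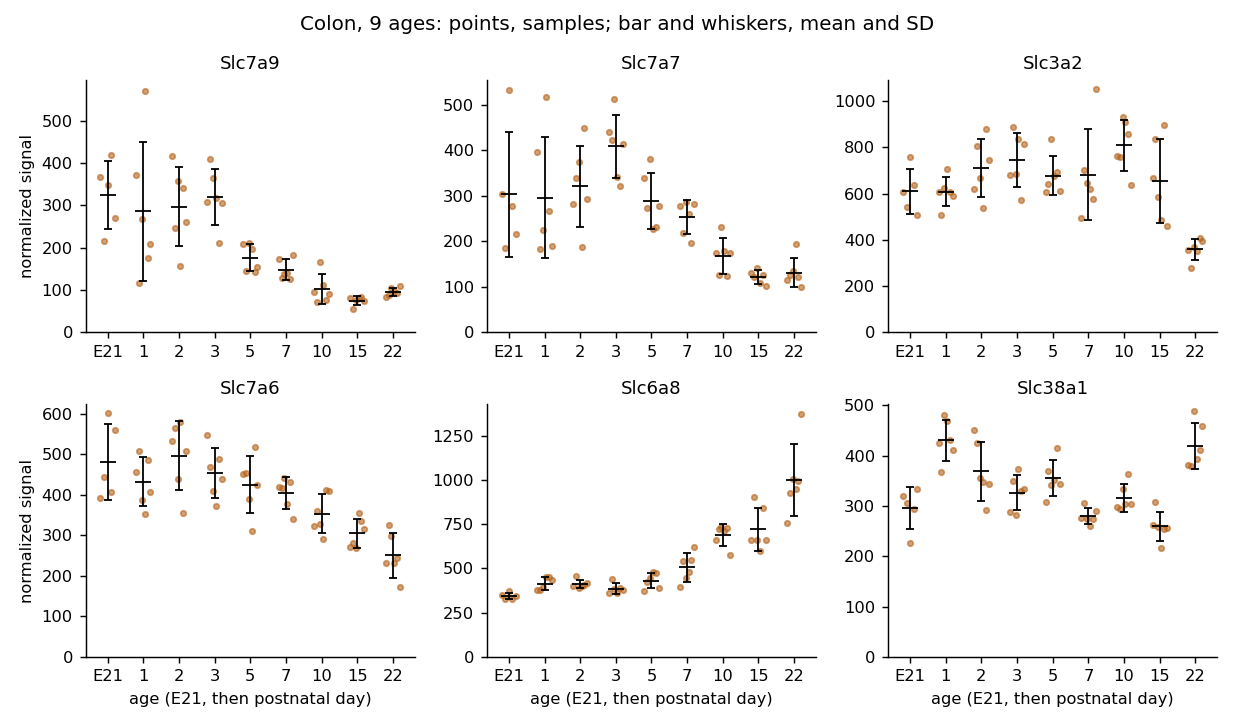
Normalized signal (y axis, arbitrary units, from 0) of 6 members in colon at E21 and 8 postnatal days (x axis), with each sample as a point and the mean and SD as a bar with whiskers (n = 6, 5 at E21). Slc7a9 and Slc7a7 were low by PND 10, Slc3a2 was low at PND 22, Slc7a6 declined over the ages, Slc6a8 was highest at PND 22, and Slc38a1 was high at PND 1 and at PND 22.

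The comparison of PND 10 with PND 3 held 5 called members, 2 higher and 3 lower, where 6.4% of all probes were called, 3.13% higher and 3.26% lower. Slc7a9 had a lowest, median and highest signal of 71.4, 92.5 and 167 at PND 10, against 211, 312 and 410 at PND 3, and Slc7a7 had 123, 174 and 231 at PND 10, against 322, 417 and 511 at PND 3. Neither gene overlapped between the ages. Their log2 changes were -1.68 ± 0.23 and -1.30 ± 0.21 (limma adjusted p = 3.04e-07 and 8.31e-06). Slc43a2, a carrier of large neutral amino acids, had 65.0, 76.6 and 80.8 at PND 10, against 86.0, 89.0 and 100.5 at PND 3 (log2 change -0.29 ± 0.08, limma adjusted p = 0.00916). That call rested on signals close to the detection limit, with 4 of 6 samples detected at PND 10, and 9 of the 12 fits without 1 sample lost it, with adjusted p up to 0.0383.

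Because Slc7a9, Slc7a7 and Slc3a1 all fell in colon, their promoters are shown, as the 250 bases before the transcription start, from RefSeq on build GRCr8, on the strand of the gene. RefSeq promoters were matched for 40 of the 53 member genes by gene ID. The stretches of these 3 genes lie within the annotated spans of the genes, so the start used is not the outermost annotated one. That of Slc7a7 lies well inside its span, chr15:31792122-31852732. Distances below refer to the start used. Capitals mark a match to AGGTCA, the core site of many nuclear receptors, or to CAAAGTCCA, a site type bound by HNF4, on either strand (reverse TGACCT and TGGACTTTG).
Slc7a9, chr1:97246632-97246881, plus strand: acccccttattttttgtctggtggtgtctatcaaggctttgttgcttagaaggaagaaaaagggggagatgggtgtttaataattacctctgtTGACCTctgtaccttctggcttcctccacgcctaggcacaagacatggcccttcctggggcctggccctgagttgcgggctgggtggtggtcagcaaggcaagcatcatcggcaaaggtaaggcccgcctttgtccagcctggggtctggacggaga
Slc7a7, chr15:31835684-31835933, minus strand: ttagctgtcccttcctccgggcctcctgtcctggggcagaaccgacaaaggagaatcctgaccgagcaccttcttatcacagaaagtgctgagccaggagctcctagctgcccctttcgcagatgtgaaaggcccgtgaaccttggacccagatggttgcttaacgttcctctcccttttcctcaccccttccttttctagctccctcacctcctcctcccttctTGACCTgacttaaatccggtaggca
Slc3a1, chr6:15394750-15394999, minus strand: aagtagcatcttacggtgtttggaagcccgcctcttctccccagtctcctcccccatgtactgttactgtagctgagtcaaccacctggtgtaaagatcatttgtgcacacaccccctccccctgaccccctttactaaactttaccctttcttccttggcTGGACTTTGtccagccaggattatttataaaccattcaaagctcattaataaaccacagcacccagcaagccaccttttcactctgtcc
AGGTCA was found in 14.1% of all 33469 RefSeq promoters over the same 250 bases, and in 7 of the 40 member genes, starting 157 bases before the start of Slc7a9 and 25 bases before that of Slc7a7. CAAAGTCCA was found in 0.338% of all promoters and, among the members, in Slc3a1, 89 bases before its start. These are matches of letters and not measured binding sites.

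Other members were higher in colon at PND 22. Slc6a8, the creatine carrier, had a lowest, median and highest signal of 758, 972 and 1377 at PND 22, against 360, 381 and 442 at PND 3, a log2 change of 1.36 ± 0.10 or 2.56-fold (limma adjusted p = 1.01e-16). It was already 0.84 ± 0.10 higher on the log2 scale at PND 10 than at PND 3, with 577, 719 and 733 at PND 10 (limma adjusted p = 1.34e-08). No sample of PND 10 or PND 22 was as low as any sample of PND 3. Its paralog for taurine, Slc6a6, was not called between PND 22 and PND 3, with 160 ± 23 against 145 ± 29 (mean ± SD, n = 6 each). Slc6a5, a glycine carrier of inhibitory neurons, had 77.0, 83.1 and 101 at PND 22, detected in all 6 samples, against 55.9, 59.9 and 68.0 at PND 3, detected in none. It was therefore at least 1.22-fold higher at PND 22 (limma adjusted p = 3.27e-08), where the bound sets the mean at PND 22 against the detection limit at PND 3.

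The sodium-coupled neutral carriers of the Slc38 family split. Slc38a1 and Slc38a2, which take up glutamine and alanine, rose, and Slc38a6 and Slc38a7 fell, out of 10 measured. Slc38a1 had a lowest, median and highest signal of 380, 402 and 488 at PND 22, against 283, 333 and 374 at PND 3, a log2 change of 0.36 ± 0.09 (limma adjusted p = 0.00132). Slc38a2 had 2739, 2895 and 3099 at PND 22, against 2190, 2410 and 2607 at PND 3, a log2 change of 0.28 ± 0.07 (limma adjusted p = 0.000664). Its level was already in that range at PND 10, at 2755, 2865 and 3309, a log2 change of 0.30 ± 0.07 over PND 3 (limma adjusted p = 0.0012), a call that was lost when arrays were scaled to their 75th percentile (adjusted p = 0.0137). Slc38a6, which shares its locus with Trmt5 and is therefore uncertain as to gene, had 87.3, 96.7 and 115 at PND 22, against 132, 148 and 162 at PND 3, a log2 change of -0.59 ± 0.10 (limma adjusted p = 7.31e-06). None of these 3 pairs of groups overlapped. The remaining called members of this comparison were Slc1a1, Slc6a4 and Slc7a1, which rose by 0.64, 0.34 and 0.29, and Slc6a15, Slc7a6os, Slc43a2 and Slc38a7, which fell by 0.70, 0.46, 0.30 and 0.28 on the log2 scale. Slc38a7 was detected in 0 of 6 samples at PND 22 and in 1 of 6 at PND 3, so its change has no measured size.

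Between PND 22 and PND 15, 12 members were called in colon, 5 higher and 7 lower, where 18.4% of all probes were called, 9.13% higher and 9.27% lower. Between PND 15 and PND 10 limma called 0 members, where 1.94% of all probes were called, 1.3% higher and 0.644% lower. At an unadjusted p under 0.05 there were 8 members in that comparison, the other normalizations and moderations tried also called 0, and the fit without colon PND 10 replicate 6 called 1. Slc6a15, a neutral amino acid carrier best known from neurons, had a lowest, median and highest signal of 60.6, 68.2 and 102 at PND 22, detected in 3 of 6 samples, against 135, 173 and 272 at PND 15, a log2 change of -1.30 ± 0.18 (limma adjusted p = 3.49e-08). Slc3a2 fell by 0.83 ± 0.14 between the same ages, with 461, 627 and 895 at PND 15 (limma adjusted p = 5.45e-06). Slc1a5, a carrier of glutamine and other neutral amino acids, had 223, 276 and 308 at PND 22, against 145, 158 and 167 at PND 15, a log2 change of 0.80 ± 0.13 (limma adjusted p = 1.24e-06), on the probe of this gene that was detected in every colon sample. Slc38a1 rose by 0.69 ± 0.09, with 216, 258 and 308 at PND 15 (limma adjusted p = 1.97e-08). No PND 22 sample of these 4 genes lay within the range of PND 15. Slc6a14, a broad carrier of neutral and cationic amino acids in gut epithelium, was called lower but its groups overlapped, at 513, 656 and 988 at PND 22, against 986, 1157 and 1368 at PND 15.

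Cell type markers moved together with these changes in colon. From PND 15 to PND 22, 7 of 8 colon epithelium markers were higher, while 6 of 6 neuron, 3 of 3 enteric neuron, 3 of 3 smooth muscle and 6 of 6 fibroblast markers were lower. The neuron sum ranged from 623 to 1650 at PND 22, against 3013 to 5655 at PND 15. The fall was not uniform over samples. The smooth muscle sum was 18600 in colon PND 22 replicate 2 and 3245 to 9657 in the other samples of that age, against 11490 to 17560 at PND 15. The fibroblast sum of replicate 2 was 26560, against 26740 to 32690 at PND 15. Against PND 3, 8 of 8 epithelium markers were higher, with sums of 68680 to 82250 at PND 22 against 30450 to 32920 at PND 3, and all 6 fibroblast markers were lower, with sums of 7576 to 26560 at PND 22 against 31960 to 39640 at PND 3. At PND 10, where Slc7a9 and Slc7a7 were lower than at PND 3, 2 of 8 epithelium markers, Car1 and Car4, were higher and Vil1 was lower, and the epithelium sum was 29340 to 39320. Of the other markers, 1 of 3 smooth muscle, 1 of 3 enteric neuron and 1 of 6 neuron markers were higher at PND 10 than at PND 3, and 1 of 6 fibroblast markers, Igf2, was lower. The part of these markers in the results was not tested.

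Slc38a5, a glutamine carrier known from pancreas and from gut crypts, had signals of 137, 310, 178, 127, 87.0 and 86.0 in colon PND 22 replicates 1 to 6. The highest value came from the replicate with the most pancreas transcripts, and the 2 lowest values from the 2 replicates with the least. Without replicates 1 to 4, the samples with the most, 2 samples of PND 22 were left, and 14 members were called between PND 22 and PND 3 in place of 19, of which 13 were among the 19. The same fits called 20 members over the 9 ages in colon in place of 25, 19 for the difference in change between tissues in place of 20, and 27 for colon against brain at PND 22, 7 higher and 20 lower in colon, in place of 32. Without colon E21 replicate 4, 27 members were called over the 9 ages in colon. In the fit without colon PND 22 replicates 1 to 4, Slc7a9, Slc7a7, Slc3a2, Slc7a6 and Slc6a8 kept their calls between PND 22 and PND 3. Their log2 changes there were -1.64, -1.87, -0.88, -1.14 and 1.60. In that fit Slc38a1, Slc38a2 and Slc38a6 missed the threshold at log2 changes of 0.42, 0.27 and -0.45 (limma adjusted p = 0.0106, 0.0326 and 0.0204). With all samples these 3 changes were 0.36, 0.28 and -0.59. Between PND 22 and PND 15 the same fit, without colon PND 22 replicates 1 to 4, called 10 members, 6 higher and 4 lower. Of these, 7 were among the 12 called with all samples. Slc3a2 missed the threshold there at a log2 change of -0.66, against -0.83 with all samples (limma adjusted p = 0.0131). The fit without colon PND 22 replicates 1 to 4 kept 2 samples of that age, so it had less power for every probe on the array. A lost call or a lower count there cannot be read as an effect of pancreas tissue. The part of pancreas tissue in the results was not tested.

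In brain, 17 members differed at PND 22 from PND 3, where 23.9% of all probes did, with 8 higher and 9 lower, where 11.7% and 12.2% of all probes were. Scaling each array to its 75th percentile moved the median log2 change of all probes to -0.26 and called 23 members, 7 higher and 16 lower. Under that scaling 8680 of all 22523 probes were called, 26.3% of them higher, in place of 5375. The largest rises among the members were those of the 2 glutamate carriers of astrocytes. Slc1a2, the main glutamate carrier of the adult forebrain, had a lowest, median and highest signal of 262, 300.3 and 333 at PND 22, against 71.7, 92.7 and 102 at PND 3, where it was detected in 4 of 6 samples. The log2 change was 1.78 ± 0.10 or 3.43-fold (limma adjusted p = 4.8e-23). Slc1a3, the second glutamate carrier of astrocytes, had 4548, 4993 and 7232 at PND 22, against 1641, 1953 and 2586 at PND 3, a log2 change of 1.38 ± 0.16 (limma adjusted p = 1.47e-10). Both were higher in each PND 22 sample than in any PND 3 sample. Slc1a1, the glutamate carrier of neurons, had 1761 ± 152 at PND 22 and 1727 ± 118 at PND 3 (mean ± SD, n = 6 each) and was not called.

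The rise of Slc1a2 came late. Its mean signal was 76.2, 74.2, 80.4, 87.8, 93.2 and 101 from E21 to PND 7, close to the detection limit, and then 135, 234 and 299.5 at PND 10, 15 and 22. It was 0.63 ± 0.10 higher at PND 10 than at PND 3 and 0.78 ± 0.10 higher at PND 15 than at PND 10 on the log2 scale (limma adjusted p = 1.1e-06 and 9.15e-09). In neither step did the samples overlap, with 207, 225 and 292 at PND 15 and 121, 132 and 151 at PND 10 as lowest, median and highest signal. Slc1a3 was high from the start, with a mean of 1796 ± 415 at E21 (SD, n = 6), and its step from PND 3 to PND 10 was called although the ages overlapped (log2 change 0.66 ± 0.16, limma adjusted p = 0.00212).

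Other carriers rose alongside. Slc7a10, which exchanges D-serine, glycine and alanine and lies in astrocytes and neurons, had a lowest, median and highest signal of 276, 300.5 and 331 at PND 22, against 127, 162 and 189 at PND 3, a log2 change of 0.90 ± 0.09 (limma adjusted p = 1.36e-12). Its locus overlaps Lrp3, so its probe is uncertain as to gene. At PND 10 it stood at 244, 252 and 284, a log2 change of 0.68 ± 0.09 over PND 3 (limma adjusted p = 3.57e-08). Slc7a4, a relative of the cationic amino acid carriers whose substrate is not settled, had 261, 284 and 382 at PND 22, against 123, 168 and 184 at PND 3, a log2 change of 0.93 ± 0.10 (limma adjusted p = 1.63e-11). It also rose between PND 10 and PND 3, by 0.50 ± 0.10, with 198, 212 and 259 at PND 10 (limma adjusted p = 0.000197). None of these groups overlapped.

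Slc6a8, the creatine carrier, rose in brain as well, with a lowest, median and highest signal of 491, 510.3 and 560.1 at PND 22, against 250.2, 282 and 293 at PND 3, a log2 change of 0.91 ± 0.08 (limma adjusted p = 1.09e-13). Slc6a9, which clears glycine and lies beside Ccdc24 with some overlap, had 270.3, 335.5 and 452 at PND 22, against 225, 246 and 253 at PND 3, a log2 change of 0.47 ± 0.09 (limma adjusted p = 1.5e-05). Each PND 22 sample was above each PND 3 sample for both genes. The smaller steps of Slc6a8, 0.32 ± 0.08 from PND 3 to PND 10 and 0.35 ± 0.08 from PND 15 to PND 22 (limma adjusted p = 0.00529 and 0.00428), lost their calls in 5 and 4 of the 12 fits that each left out 1 sample. Slc7a1 and Slc6a20a, carriers of cationic amino acids and of proline, rose by 0.44 and 0.36 on the log2 scale between PND 3 and PND 22.

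**Figure D2:**
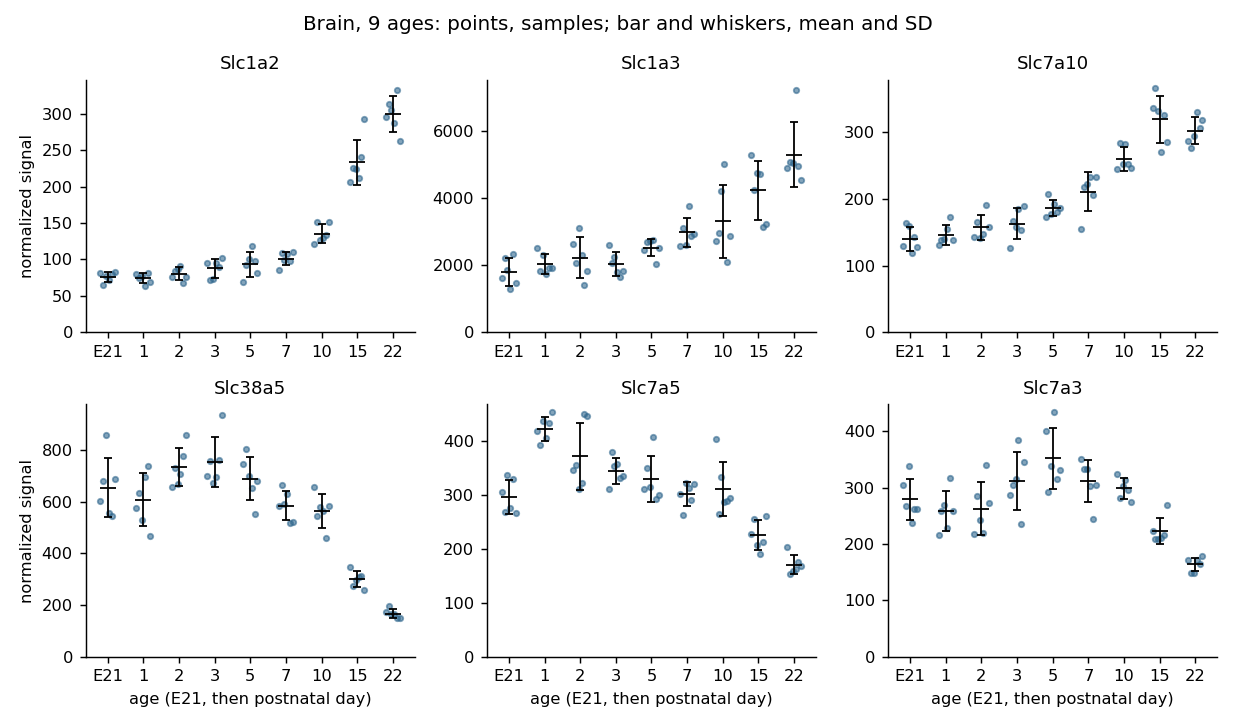
Normalized signal (y axis, arbitrary units, from 0) of 6 members in brain at E21 and 8 postnatal days (x axis), with each sample as a point and the mean and SD as a bar with whiskers (n = 6). Slc1a2, Slc1a3 and Slc7a10 were highest at PND 15 and 22, whereas Slc38a5, Slc7a5 and Slc7a3 were lowest at PND 22.

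Falls in brain were led by Slc38a5, which carries glutamine, histidine and asparagine. It had a lowest, median and highest signal of 149, 166 and 196 at PND 22, against 673, 729 and 938 at PND 3. The log2 change was -2.17 ± 0.10, a 4.51-fold difference and the largest fall among the members in either tissue (limma adjusted p = 4.9e-26). Its mean signal was between 565 and 754 up to PND 10 and then 299.6 ± 31.0 at PND 15 and 167 ± 17 at PND 22 (SD, n = 6 each). The steps were -0.42 ± 0.10, -0.91 ± 0.10 and -0.84 ± 0.10 on the log2 scale for PND 10 against PND 3, PND 15 against PND 10 and PND 22 against PND 15 (limma adjusted p = 0.00199, 5.04e-10 and 9.39e-09). No sample overlapped between the ages of any of these steps, with 259, 302 and 347 at PND 15 and 459, 572 and 657 at PND 10. The first step lost its call without brain PND 3 replicate 6 or brain PND 10 replicate 5 and under scaling to the 75th percentile (limma adjusted p = 0.0134, 0.0133 and 0.0351).

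Slc7a5, the large neutral amino acid exchanger of the blood-brain barrier and of growing cells, had a lowest, median and highest signal of 154, 167 and 204 at PND 22, against 312, 346 and 380.2 at PND 3, a log2 change of -1.01 ± 0.09 (limma adjusted p = 3.37e-14). Its fall between PND 10 and PND 15 was 0.46 ± 0.09 on the log2 scale, with 191, 220.2 and 262 at PND 15, against 266, 292 and 404 at PND 10 (limma adjusted p = 0.000163). Slc7a3, a carrier of arginine and lysine found in neurons, had 148, 168 and 178 at PND 22, against 235, 310.0 and 385 at PND 3, a log2 change of -0.92 ± 0.10 (limma adjusted p = 5.4e-11). Neither gene overlapped between these ages. Slc7a3 also fell by 0.43 ± 0.10 from PND 10 to PND 15 and by 0.44 ± 0.10 from PND 15 to PND 22, with 209, 214 and 269 at PND 15 and 275, 299.7 and 324 at PND 10 (limma adjusted p = 0.00222 and 0.00299). The later of these steps lost its call in 3 of the 12 fits that each left out 1 sample.

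Slc7a6 and the gene on the opposite strand beside it, Slc7a6os, which is no carrier although its symbol matched the rule, fell in brain too. Slc7a6 had a lowest, median and highest signal of 450.5, 494 and 532 at PND 22, against 569.8, 601 and 659 at PND 3, a log2 change of -0.31 ± 0.08 (limma adjusted p = 0.00168). Slc7a6os had 363, 393 and 472 at PND 22, against 499.7, 578 and 658 at PND 3, a log2 change of -0.52 ± 0.09 (limma adjusted p = 2.85e-06). No samples overlapped, but the call of Slc7a6 was lost, at an adjusted p of 0.165, when arrays were scaled to their 75th percentile. Slc6a6, Slc6a4, Slc38a6 and Slc38a2 were the remaining members that fell, by 0.59, 0.53, 0.38 and 0.31 on the log2 scale.

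The shorter intervals in brain held 7 called members for PND 10 against PND 3, where 8.7% of all probes were called, 5 for PND 15 against PND 10, where 7.78% were, and 5 for PND 22 against PND 15, where 3.23% were. Of the 7, 5 were higher and 2 lower, against 4.85% and 3.84% of all probes. In each later interval 2 were higher and 3 lower, against 3.94% and 3.84% of all probes for PND 15 and 1.9% and 1.33% for PND 22. Without brain PND 15 replicate 6 the last of these counts was 2, the lowest of 12 such fits. Slc6a15, which was highest at PND 7 with a mean of 1746 ± 163, had 1331 ± 68 at PND 22 and 1365 ± 153 at PND 3 (SD, n = 6 each), so a comparison of the end points alone did not call it. Slc6a13, a carrier of GABA and taurine of the meninges, changed over the 9 ages by the F test (limma adjusted p = 6.16e-10), with a highest mean of 178 at PND 1 and means of 87.7 and 89.8 at PND 15 and 22.

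Markers of brain cell types moved over the same interval. Between PND 3 and PND 22, 4 of 4 astrocyte and 5 of 5 oligodendrocyte markers were higher, 5 of 6 neuron markers were higher and 1 lower, and 5 of 6 fibroblast and meninges markers were lower. The astrocyte sum ranged from 17380 to 20620 at PND 22, against 5064 to 6808 at PND 3, and the oligodendrocyte sum from 10680 to 14350 at PND 22, against 579 to 723 at PND 3. None of 4 endothelium markers was called by limma, with a summed signal of 928 to 1264 at PND 22, against 1067 to 1461 at PND 3. Their median log2 change was 0.03. Only 1 of the 4 was detected in every brain sample at each of these ages, and 2 were detected in none at PND 3 and 1 in none at PND 22. Most of the sum came from Cldn5, with means of 908 at PND 22 and 1087 at PND 3, so the median mostly reflects signals near the detection limit. The fibroblast and meninges sum was 4932 to 5706 at PND 22, against 7714 to 9293 at PND 3. The part of these markers in the results was not tested.

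Across birth, Slc7a5 and Slc38a1 rose in both tissues. At PND 1, 3 members differed from E21 in colon, 2 higher and 1 lower, where 3.73% of all probes were called, 1.74% higher and 2% lower. Scaling to the 75th percentile moved the median log2 change of all probes in colon to -0.25 and called 7 members, 4 higher and 3 lower. Under that scaling 3795 of all 22523 probes were called in colon, 20.3% of them higher, in place of 841. In brain 5 members differed, 5 higher and 0 lower, where 3.59% of all probes were called, 1.47% higher and 2.12% lower, and without brain E21 replicate 2 or 3 the count was 3. Slc7a5 had a lowest, median and highest signal of 131, 138 and 190.4 in colon at PND 1, against 89.1, 95.7, 99.99, 105 and 90.7 in the 5 colon samples of E21. In brain it had 394, 426.5 and 454 at PND 1, against 267, 291 and 337 at E21. The samples of PND 1 were all higher than those of E21 in each tissue, with log2 changes of 0.62 ± 0.10 in colon and 0.52 ± 0.09 in brain (limma adjusted p = 7.99e-06 and 8.4e-05). Slc38a1 had 368, 428 and 480.0 in colon at PND 1, against 319.9, 306, 225, 293 and 335 at E21, and 189, 244 and 275 in brain at PND 1, against 141, 168 and 174 at E21. Its samples did not overlap either, with log2 changes of 0.55 ± 0.10 in colon and 0.53 ± 0.09 in brain (limma adjusted p = 7.04e-05 and 3.03e-05).

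Leaving out colon E21 replicate 4, the sample with brain markers, kept all 3 colon calls, and the log2 changes of Slc7a5 and Slc38a1 were then 0.64 and 0.46. That sample did set the E21 level of Slc1a3, at 666 against 78.5 to 84.1 in the other 4, of Slc6a15, at 329 against 85.3 to 107, and of Slc3a1, at 381 against 120.4 to 191. The remaining calls at birth were Slc6a4, the serotonin carrier, which fell in colon by 0.45, and Slc6a6, Slc6a9 and Slc7a6os, which rose in brain by 0.49, 0.44 and 0.37 on the log2 scale. Those 4 groups overlapped between the ages. The call of Slc6a4 in colon was lost in each fit without colon E21 replicate 2, 5 or 6 or without colon PND 1 replicate 2, 3, 5 or 6. The E21 samples came from 1 dam, so age and litter cannot be told apart here.

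**Figure D3:**
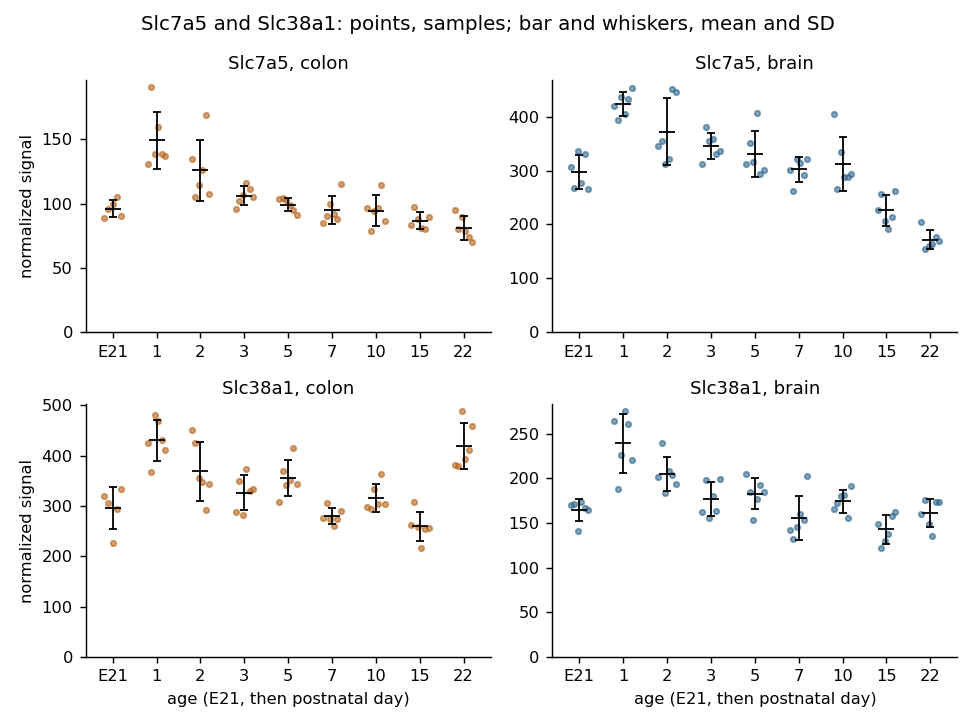
Normalized signal (y axis, arbitrary units, from 0) of Slc7a5 (upper row) and Slc38a1 (lower row) in colon (left) and brain (right) at E21 and 8 postnatal days (x axis), with each sample as a point and the mean and SD as a bar with whiskers (n = 6, 5 for colon E21). Both genes stood higher at PND 1 than at E21 in both tissues, and Slc7a5 declined after PND 1 to means of 81.3 in colon and 171 in brain at PND 22.

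Since Slc7a5 and Slc38a1 rose together at birth, their promoters are shown in the same way. The stretch of Slc38a1 again lies within the annotated span of its gene. Capitals mark CACGTG, the E-box bound by Myc and related factors (its own reverse), and TGATGNAA (reverse TTNCATCA), the composite element through which Atf4 acts in amino acid shortage.
Slc7a5, chr19:66872413-66872662, minus strand: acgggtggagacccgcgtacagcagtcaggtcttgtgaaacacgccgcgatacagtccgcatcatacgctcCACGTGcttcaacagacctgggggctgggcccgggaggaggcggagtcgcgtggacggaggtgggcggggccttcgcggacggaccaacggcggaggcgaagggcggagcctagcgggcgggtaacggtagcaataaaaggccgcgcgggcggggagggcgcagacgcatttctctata
Slc38a1, chr7:129681402-129681651, minus strand: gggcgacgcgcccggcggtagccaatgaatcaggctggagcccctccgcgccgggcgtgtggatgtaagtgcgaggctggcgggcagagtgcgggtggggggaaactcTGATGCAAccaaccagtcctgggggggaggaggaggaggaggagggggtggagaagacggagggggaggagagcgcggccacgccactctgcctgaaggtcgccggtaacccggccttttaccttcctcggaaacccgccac
CACGTG lay 179 bases before the start of Slc7a5 and was found in 7 of 40 member promoters and 5.59% of all promoters. TGATGNAA lay 142 bases before the start of Slc38a1 and was found in 3 of 40, the others being Slc1a4 and Slc7a1, and in 3.4% of all promoters. The promoters of Slc7a5 and Slc38a1 shared neither match.

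The change from PND 3 to PND 22 differed between colon and brain for 20 members by the interaction term of limma, where 21.2% of all probes differed, with 9 more positive and 11 more negative in colon, where 10.3% and 10.9% of all probes were. Slc38a5 had the largest positive difference, 1.84 ± 0.19 on the log2 scale, with changes of -0.33 in colon and -2.17 in brain (limma adjusted p = 4.15e-14). Without the 4 colon samples with the most pancreas transcripts the difference was 1.16. Slc6a4 followed with 0.87 ± 0.18, from 0.34 in colon and -0.53 in brain, Slc6a6 with 0.74 ± 0.18, from 0.14 in colon and -0.59 in brain, and Slc7a3 with 0.72 ± 0.14, from -0.20 in colon and -0.92 in brain (limma adjusted p = 4.91e-05, 0.000428 and 6.27e-06). Slc6a4 was detected in 2 of 6 brain samples at PND 22, so its change there is understated. Slc7a3 in colon was detected in 0 of 6 samples at PND 22 and in 2 of 6 at PND 3, so its colon change has no measured size.

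The largest negative differences belonged to the luminal and basolateral exchangers and to astrocyte carriers. Slc7a9 differed by -1.71 ± 0.24, with changes of -1.71 in colon and -0.01 in brain, and Slc7a7 by -1.48 ± 0.24, with -1.65 in colon and -0.18 in brain (limma adjusted p = 3.91e-09 and 2.44e-07). In brain both were near the limit, detected at PND 22 in 1 and 0 of 6 samples and at PND 3 in 0 and 2 of 6. Slc1a2 differed by -1.61 ± 0.12, with 0.17 in colon and 1.78 in brain, and Slc7a10 by -1.41 ± 0.13, with -0.51 in colon and 0.90 in brain (limma adjusted p = 2.04e-21 and 5.65e-17). Slc1a2 was near the limit in colon, detected in 37 of 53 samples over all ages, so its small colon change does not show a steady level. Called changes of opposite sign in the 2 tissues were found for Slc7a10, for Slc6a4 and for Slc38a2, which rose by 0.28 in colon and fell by 0.31 in brain.

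**Figure D4:**
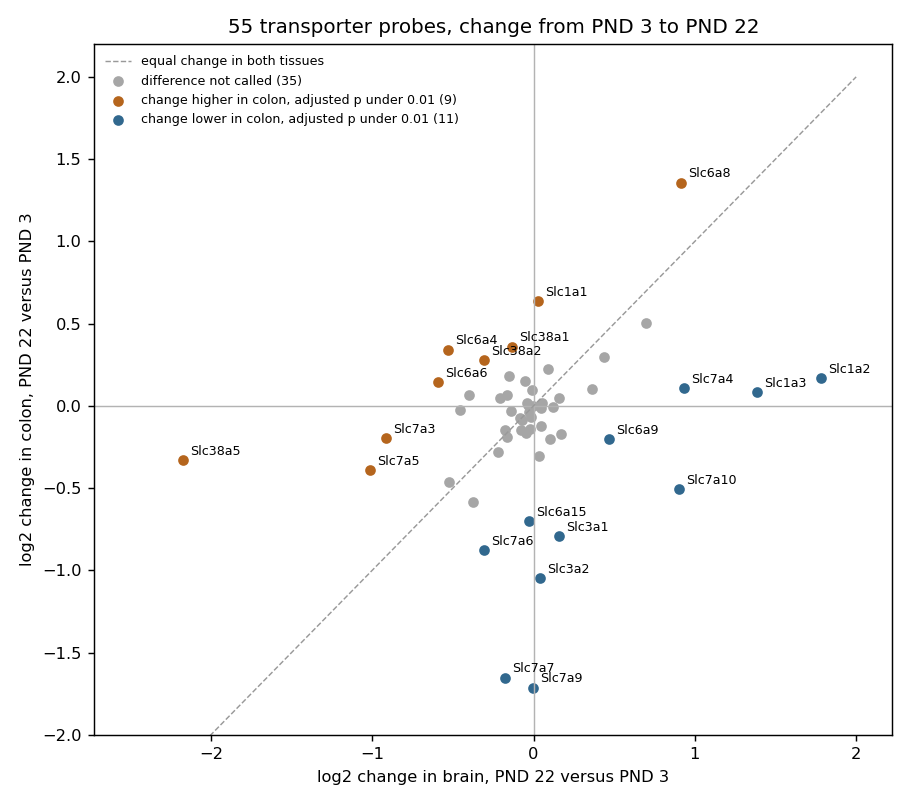
Log2 change from PND 3 to PND 22 of each of the 55 member probes in colon (y axis) against brain (x axis), with members whose change differed between tissues coloured and named. Slc7a9, Slc7a7 and Slc3a2 fell in colon and lie near 0 in brain, Slc1a2 and Slc1a3 rose in brain and lie near 0 in colon, Slc38a5 fell most in brain, and Slc6a8 was positive in both tissues. Slc7a9 and Slc7a7 in brain and Slc1a2 in colon were near the detection limit, where a value near 0 does not show a steady level.

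Each probe was also set against itself in the other tissue at PND 22, where 32 members differed by limma and 38.4% of all probes did, with 9 higher and 23 lower in colon, where 19.3% and 19% of all probes were. Slc6a14 had a lowest, median and highest signal of 513, 656 and 988 in colon, against 55.2, 60.5 and 64.6 in brain, where no sample was detected. It was at least 10.1-fold higher in colon (limma adjusted p = 1.35e-37), with the brain set to its detection limit. Slc1a5 had 223, 276 and 308 in colon, against 56.8, 67.2 and 74.3 in brain, a log2 difference of 2.03 ± 0.11 (limma adjusted p = 1.19e-31). The brain samples were detected in 2 of 6 cases, and none reached a colon sample. Slc38a1 had 380, 402 and 488 in colon, against 136, 167 and 176 in brain, and Slc6a4 had 97.3, 140.1 and 155 in colon, against 56.2, 62.8 and 74.8 in brain. Their log2 differences were 1.38 ± 0.09 and 1.06 ± 0.13 (limma adjusted p = 3.03e-26 and 4.15e-12), again without overlap.

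Lower in colon than in brain were above all Slc1a3 and Slc6a15. Slc1a3 had a lowest, median and highest signal of 86.3, 97.4 and 114 in colon, against 4548, 4993 and 7232 in brain, a log2 difference of -5.73 ± 0.21 (limma adjusted p = 5.75e-45). Slc6a15 had 60.6, 68.2 and 102 in colon, against 1295, 1305 and 1468 in brain, a log2 difference of -4.18 ± 0.14 (limma adjusted p = 3.3e-48). Slc3a1, with its overlap with Prepl, had 79.8, 114 and 151 in colon, against 823, 1345 and 1752 in brain, a log2 difference of -3.49 ± 0.17 (limma adjusted p = 2.35e-35). Slc7a10 had 54.1, 64.7 and 71.9 in colon, against 276, 300.5 and 331 in brain, a log2 difference of -2.25 ± 0.09 (limma adjusted p = 1.72e-42). No sample of these genes in colon came within the range of brain, and Slc6a15 and Slc7a10 were detected in 3 and 1 of 6 colon samples, which makes their differences too small. Slc7a3, Slc38a3 and Slc6a13, each detected in every brain sample and in no colon sample of PND 22, were at least 2.36-, 1.73- and 1.29-fold lower in colon. Slc7a7, detected in every colon and in no brain sample of that age, was at least 1.89-fold higher in colon.

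Genes around these carriers were read from lists of related genes. Among all probes, 11.7% rose and 12.7% fell in colon between PND 3 and PND 22, and 11.7% rose and 12.2% fell in brain. Of 18 measured genes for transmitter synthesis, breakdown and vesicle loading, 7 rose and 1 fell in brain between PND 3 and PND 22, with a median log2 change of 0.23 against -0.02 over all probes. Slc17a7, the vesicular glutamate carrier of cortical neurons, averaged 262 ± 47 at PND 22 and 79.6 ± 14.6 at PND 3 (SD, n = 6 each), while Slc17a6, its counterpart of the early brain and of the brainstem, averaged 1373 ± 165 at PND 22 and 2626 ± 270 at PND 3. Gls2, a glutaminase, averaged 245 ± 15 at PND 22 and 88.9 ± 22.8 at PND 3. The log2 changes of Slc17a7 and Slc17a6 were 1.72 ± 0.11 and -0.94 ± 0.11 (limma adjusted p = 6.54e-20 and 2.28e-10), and Gls2 rose at an adjusted p of 4.37e-18. In colon 2 of the 18 rose and 3 fell, led by Maob, the amine oxidase, at 92.7 ± 28.9 at PND 22 and 602 ± 196 at PND 3 (SD, n = 6 each), a log2 change of -2.68 ± 0.28 (limma adjusted p = 2.63e-11).

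Of 11 genes of the amino acid stress response, 2 rose and 3 fell in colon and 2 rose and 1 fell in brain over the same interval, with medians of -0.01 and 0.03. The shares of all probes beside these counts and those below are 11.7% higher and 12.7% lower in colon. In brain they are 11.7% higher and 12.2% lower. In colon Cth, of cysteine synthesis, averaged 402 ± 75 at PND 22 and 196 ± 26 at PND 3, and Phgdh, of serine synthesis, averaged 176 ± 9 at PND 22 and 257 ± 19 at PND 3 (SD, n = 6 each). Their log2 changes were 1.02 ± 0.13 and -0.55 ± 0.09 (limma adjusted p = 7.22e-09 and 8.82e-07). Of 9 other carriers of amino acids and peptides and their partners, 1 rose and 3 fell in colon, and 5 rose and none fell in brain. The peptide carrier Slc15a1 was among the falls in colon, at -0.44 ± 0.13 (limma adjusted p = 0.00426). Its colon means were 97.9, 146, 110 and 71.9 at PND 3, 10, 15 and 22, so the fall was not steady. Cltrn was among the rises in brain, at 0.54 ± 0.08 (limma adjusted p = 8.89e-08). It was detected in 0 of 6 brain samples at PND 3 and in 6 of 6 at PND 22, with means of 54.7 and 79.4. That value therefore understates its rise. Slc15a3 was detected in 0 and 5 of 6 brain samples at these ages, with means of 58.9 and 75.4.

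The rest of the members gave little signal or little change. Slc6a18, Slc38a8 and 1 of the 2 Slc36a3 probes were detected in none of the 107 samples. Slc7a2, Slc7a11, Slc7a13, Slc7a15, the other Slc36a3 probe and the dim Slc1a5 probe were detected in 1 to 5 samples each. The 2 Slc1a5 probes therefore disagreed, since 1 was detected in 53 of 53 colon samples and the other in 1. Slc1a6, Slc6a2, Slc6a3, Slc7a14, Slc36a1, Slc36a4, Slc38a4, Slc38a9, Slc43a1, Slc43a2 and Slc43a3 did not pass the test over ages in either tissue. Slc6a3, the dopamine carrier, was detected in 52 of 54 brain samples and in no colon sample. Of the members not described above, Slc38a10 and Slc7a8 passed over ages in colon and Slc1a4, Slc6a7 and Slc6a11 in brain, with a ratio of the highest to the lowest age mean of 1.26, 1.26, 1.25, 1.51 and 1.34.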

How the data were processed

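Total RNA was labelled and hybridized to Illumina RatRef-12 BeadChips. The authors summarized bead signals in BeadStudio, so the deposited values are linear intensity values per probe, not normalized between arrays, each with a detection p-value that the authors' software computed against the negative controls of the same array. The authors left out 1 colon E21 array as an outlier. Their own quantile-normalized intensity values served as an alternative.

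Quantile normalization was applied once over all 107 arrays, values under 1 were set to 1, and log2 was taken. For each tissue limma 3.58.1 (R 4.3.3 with the package data.table, version 1.17.8) was fitted with 1 mean per age, and for both tissues jointly for the interaction and the comparison at PND 22. Benjamini-Hochberg adjustment ran over 22523 probes, and an adjusted p under 0.01 was a call. A probe was detected at a detection p under 0.05. Where 1 group was detected in no sample, the fold is a bound against the detection limit of each array. Scripts were tested on simulated data. Figures were drawn with Python 3.11.15 and matplotlib 3.10.9.

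Members given in full were, for PND 22 against PND 3, the up to 6 largest rises and 6 largest falls with a call, no overlap between ages and a detected signal throughout the higher group, and up to 4 each way elsewhere, with no condition on overlap for the interaction. The members and gene lists were chosen with earlier results of these data known. A related or marker gene was read from its brightest probe. Alternatives were normexp background correction, scaling to the 75th percentile, normalization within each tissue, the authors' values, detected probes only, a floor of 16, trend and robust moderation, a replicate block, at least 1.5-fold, the methods' one-way F test and leaving out each sample. The fit without 4 colon PND 22 samples was chosen after seeing the data. The number of arrays limits precision.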

Additional observations from a re-analysis of the deposited data

Results flagged for a closer look

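In 26 of 378 groups of 5 or 6 samples, over the 9 ages for each member in each tissue in which it was given in full, the gap of 1 sample to its nearest neighbour, divided by the range of the group on the log2 scale, was above Dixon's critical value, which is set so that chance passes it in about 1 in 20 groups. They were 6.88% of groups. No sample was left out for this, and each value stands beside the range of its group. Slc1a2 had a signal of 79.6 in colon PND 1 replicate 3, against 70.1 to 73.4 in the other samples of its group, and 55.8 in colon PND 5 replicate 2, against 67.8 to 71.8 in the other samples of its group. Slc1a3 had a signal of 7230 in brain PND 22 replicate 4, against 4550 to 5090 in the other samples of its group, and 666 in colon E21 replicate 4, against 78.5 to 84.1 in the other samples of its group. Slc1a5 had a signal of 95.7 in brain PND 10 replicate 3, against 69.9 to 76.2 in the other samples of its group. Slc38a1 had a signal of 141 in brain E21 replicate 3, against 165 to 174 in the other samples of its group. Slc38a5 had a signal of 938 in brain PND 3 replicate 6, against 673 to 760 in the other samples of its group, and 124 in colon PND 2 replicate 1, against 162 to 187 in the other samples of its group. Slc43a2 had a signal of 74.3 in colon PND 2 replicate 3, against 86.3 to 91.1 in the other samples of its group, and 63.2 in colon PND 22 replicate 5, against 71.7 to 76.8 in the other samples of its group. Slc6a14 had a signal of 76.7 in brain PND 3 replicate 3, against 53.2 to 57.3 in the other samples of its group. Slc6a15 had a signal of 1470 in brain PND 22 replicate 3, against 1300 to 1310 in the other samples of its group, and 329 in colon E21 replicate 4, against 85.3 to 107 in the other samples of its group, and 96.1 in colon PND 3 replicate 4, against 119 to 130 in the other samples of its group. Slc6a4 had a signal of 75.1 in brain E21 replicate 1, against 92.1 to 102 in the other samples of its group, and 71.3 in brain PND 7 replicate 5, against 87.1 to 97.2 in the other samples of its group. Slc6a5 had a signal of 65.3 in colon PND 10 replicate 3, against 59.3 to 61.4 in the other samples of its group, and 78.5 in colon PND 15 replicate 5, against 60.6 to 66.2 in the other samples of its group. Slc6a6 had a signal of 92.1 in colon E21 replicate 6, against 140 to 152 in the other samples of its group. Slc6a9 had a signal of 225 in brain PND 3 replicate 4, against 245 to 253 in the other samples of its group. Slc7a10 had a signal of 155 in brain PND 7 replicate 1, against 206 to 233 in the other samples of its group, and 77.8 in colon PND 1 replicate 4, against 88.6 to 92.6 in the other samples of its group, and 66.3 in colon PND 2 replicate 5, against 88.9 to 97.1 in the other samples of its group. Slc7a3 had a signal of 269 in brain PND 15 replicate 6, against 209 to 223 in the other samples of its group. Slc7a6os had a signal of 627 in brain PND 5 replicate 4, against 469 to 510 in the other samples of its group. Slc7a9 had a signal of 54 in colon PND 15 replicate 2, against 72.4 to 81.9 in the other samples of its group.

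The change from PND 3 to PND 22 differed between colon and brain for 20 members by the interaction term of limma. Differences are colon minus brain on the log2 scale, followed by the change in colon and in brain. The 8 largest in either direction, described above, were 1.84 for Slc38a5, 0.87 for Slc6a4, 0.736 for Slc6a6, 0.721 for Slc7a3, -1.41 for Slc7a10, -1.48 for Slc7a7, -1.61 for Slc1a2 and -1.71 for Slc7a9. The difference was 0.624 for Slc7a5, with -0.39 in colon and -1.01 in brain, and 0.609 for Slc1a1, with 0.64 in colon and 0.03 in brain, and 0.582 for Slc38a2, with 0.28 in colon and -0.31 in brain (limma adjusted p = 5.04e-05, 0.000398, 8.18e-06). The difference was 0.491 for Slc38a1, with 0.36 in colon and -0.13 in brain, and 0.444 for Slc6a8, with 1.36 in colon and 0.91 in brain, and -0.57 for Slc7a6, with -0.88 in colon and -0.31 in brain (limma adjusted p = 0.00142, 0.00502, 0.00185). The difference was -0.67 for Slc6a9, with -0.20 in colon and 0.47 in brain, and -0.672 for Slc6a15, with -0.70 in colon and -0.03 in brain, and -0.826 for Slc7a4, with 0.11 in colon and 0.93 in brain (limma adjusted p = 3.2e-06, 0.00635, 1.55e-06). The difference was -0.951 for Slc3a1, with -0.79 in colon and 0.16 in brain, and -1.09 for Slc3a2, with -1.05 in colon and 0.04 in brain, and -1.3 for Slc1a3, with 0.08 in colon and 1.38 in brain (limma adjusted p = 0.0011, 2.59e-07, 0.000296).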

How the results depend on the processing

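Single results were not set against the limit of at least 1.5-fold or the one-way F test. Under the remaining alternatives, 51 of the 62 results given in full kept their direction and their side of the threshold. Another 11 lost their call under at least 1, and none turned its sign. Results under 1.5-fold, such as those of Slc38a1 and Slc7a5 in brain across birth, do not pass that limit. Of 526 values under other settings 517 kept the call and 9 lost it, and of 838 values with 1 sample left out 815 kept it and 23 lost it. Scaling to the 75th percentile in place of quantile normalization called 7 members for PND 1 against E21 and 3 for PND 10 against PND 3 in colon. It called 3795 and 1045 of all 22523 probes in these comparisons, respectively. It moved the median log2 change of all probes to -0.25 for PND 1 against E21 in colon, to -0.17 and -0.26 for PND 10 and PND 22 against PND 3 in brain, and to 0.27 for the difference between tissues, and the cause was not tested. Under it the share of higher calls among all probes was 20.3% in place of 46.5% for PND 1 against E21 and 62% in place of 49.6% for PND 22 against PND 15 in colon. In brain it was 51.2% in place of 41% for PND 1 against E21 and 26.3% in place of 48.9% for PND 22 against PND 3, and for the difference between tissues 60.1% in place of 48.7%. Asking also for at least 1.5-fold left 1, 3, 7 and 9 members in colon for PND 1 against E21, PND 10 against PND 3, PND 22 against PND 15 and PND 22 against PND 3, and 0, 3, 3, 1 and 9 in brain for the same comparisons with PND 15 against PND 10 in the middle, since fewer members pass a further limit.

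With 1 sample left out, counts over ages ran from 23 to 27 in colon and from 26 to 27 in brain. In colon they ran from 2 to 3, 4 to 6, 0 to 1, 9 to 13 and 16 to 20 for PND 1 against E21, PND 10 against PND 3, PND 15 against PND 10, PND 22 against PND 15 and PND 22 against PND 3, and in brain from 3 to 5, 5 to 8, 5 to 6, 2 to 5 and 15 to 17. The count of brain PND 22 against PND 15 was 2 without brain PND 15 replicate 6 and 3 without brain PND 15 replicate 4 or brain PND 22 replicate 2, 3 or 5. Counts ran from 17 to 21 for the difference between tissues and from 30 to 33 for colon against brain. With the replicate number as a block the counts were 26 and 27 over ages in colon and brain, 3, 5, 0, 12 and 18 in colon, 5, 7, 5, 5 and 17 in brain, 22 for the difference and 32 between tissues. The labels give samples a number but no pairing, and within a tissue same-numbered samples deviated together with correlations from -0.22 to 0.33, and between colon and brain of 1 age from 0.000913 to 0.41. Between tissues these were 0.15 to 0.341 at PND 3 and 0.0586 to 0.237 at PND 22, and 6 of 6 and 5 of 6 colon samples correlated best with the brain sample of their own number, a hint from the data and not from the design. At E21 the brain sample of the same number was the best match for 3 of 5 colon samples. At PND 1, 2, 5, 7, 10 and 15 it was so for 6, 4, 5, 6, 6 and 4 of 6. Since 1 of 6 correlations at PND 22 was under 0.1 and the labels give no pairing, the numbers were not taken as pairs in the main fit. That fit therefore treats colon and brain samples as independent, which the best matches leave uncertain. Its p-values for the difference and between tissues carry this limit. With the block, which ties same-numbered samples of 1 age across tissues, all 20 members called for the difference and all 32 between tissues kept their calls. Dim signals limit the rest, since a change below the detection limit has no measured size.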
